A study of Mus musculus with 12 samples.

Results

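The regions described here were open in both the Sublow and the Low population of mouse intestinal epithelium and were listed in neither the Negative nor the High population. They were chosen by the deposited peak lists themselves: peaks of the 4 lists were joined into 1 merged region wherever they shared 1 bp or more or lay end to end, and a merged region was kept if it held a Sublow peak and a Low peak and no Negative or High peak. This gave 5914 of 82365 merged regions. The presence of a peak is therefore what selected them, and it is given as a description with no test.

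All cells came from C57Bl/6 mice with a Sox9-EGFP reporter, whose green fluorescence follows the activity of the Sox9 gene, and were sorted into the populations Sox9 Negative, Sox9 Sublow, Sox9 Low and Sox9 High. The labels give no treatment, age or sex, and leave unsaid how many animals each population came from. Each population had 3 libraries made by Omni-ATAC-seq, in which the Tn5 transposase cuts and tags accessible DNA, and the labels give 12000 cells collected per population. The libraries of a population were represented by 1 consensus list of peaks on the mouse build mm9, with a position for each peak and no height, score or read count. Sequencing depth is thus unknown, no value has a replicate error, and no difference could be tested over libraries. The 95% intervals below are exact intervals of a share or a median over regions; they cover counting error only and treat regions as independent. The populations could not be checked against marker genes, since no mm9 annotation was used here, and for the same reason the regions are given by position without genes or sequence.

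The intestinal epithelium is renewed from stem cells at the base of the crypt, whose daughters divide as transit-amplifying progenitors before they become absorptive or secretory cells. Sox9 is a transcription factor of the crypt. With this reporter, stem cells are known to be most frequent among Low cells and transit-amplifying progenitors among Sublow cells. Enteroendocrine cells are known to be enriched among High cells, while many other mature cells sort as Negative. Accessible sites outside promoters are often enhancers, which tend to differ between cell states more than promoters do. Regions in the Sublow and Low lists alone are thus sites listed in both crypt populations that are known to be rich in dividing cells, and in neither population at the ends of the reporter range.

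The 5914 regions made up 7.18% of all merged regions (95% interval 7.005 to 7.36%), 11.4% of the 51751 regions with a Sublow peak and 10.3% of the 57486 regions with a Low peak. They spanned 2.26 Mb. Nearly every one was simple in structure: 5877 held 1 Sublow and 1 Low peak, 23 held 2 Sublow peaks and 1 Low peak, 13 held 1 Sublow peak and 2 Low peaks, and 1 held 2 of each. The 5938 Sublow peaks in them were 11.4% of the Sublow list but 6.25% of its bases, and the 5928 Low peaks were 10.2% of the Low list but 6.89% of its bases. The regions shared by these crypt populations thus drew on the narrower peaks of both lists.

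The width of a peak was not used to choose the regions, although a peak list sets its ends by the same signal that decides whether the peak is listed. The merged regions had a median width of 345 bp (341 to 350), a middle range from the 25th to the 75th percentile of 262 to 465 bp, and extremes of 78 and 1429 bp. Their width lay between those of the other classes that hold 2 neighbouring reporter levels, at 325 bp (319 to 332) for the 2613 regions of Negative and Sublow only and 377 bp (371 to 381) for the 4922 of Low and High only. Regions of a single list were narrower, with a median of 184.5 bp (182 to 188) for Sublow alone and 205 bp (202 to 209) for Low alone. Regions that another population also held were wider, at 455 bp (450 to 461) with Negative added and 474 bp (466 to 479) with High added, and those of all 4 lists reached 743 bp. Merging adds up the span of all peaks in a region, which by itself makes regions of more lists wider. Single peaks differed too, in regions with 1 peak in each list that held them. Median Low peaks were 317 bp in Sublow and Low only, 344 bp with Negative added, 406 bp with High added and 643 bp in all 4 lists. Median Sublow peaks were 267, 399, 312 and 658 bp in the same order. How much merging added to the width of regions was not tested. Widths of at least 500 bp were reached by 1196 of the Sublow and Low only regions (20.2%, 19.2 to 21.3%), against 14.7% of Negative and Sublow only and 25.8% of Low and High only, and 26 reached 1000 bp.

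**Figure D1:**
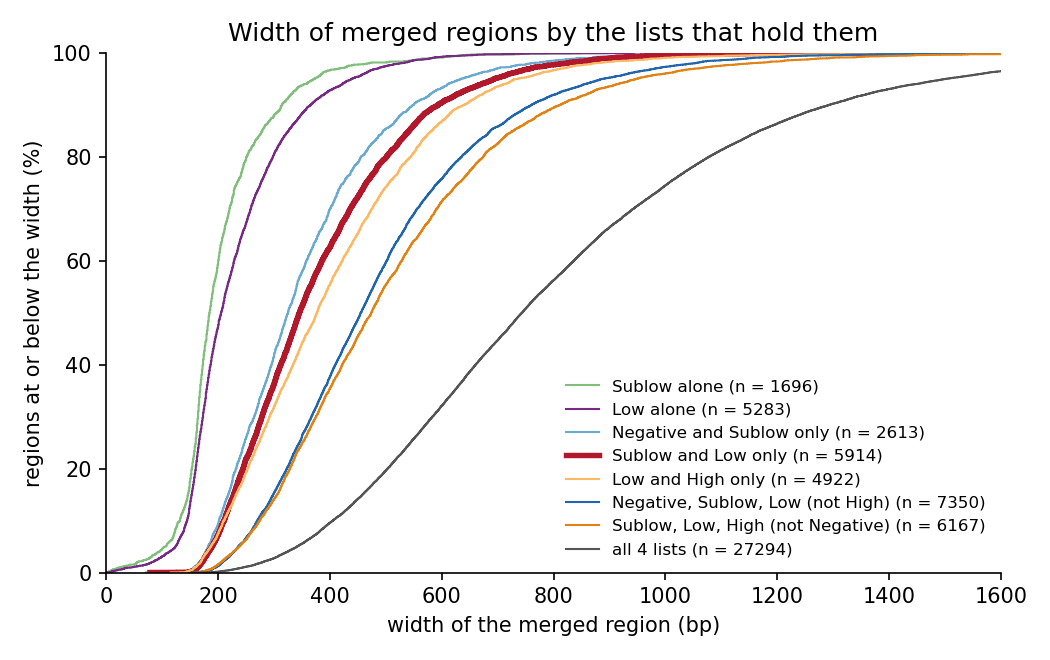
Cumulative share of merged regions (vertical axis, %) by width (horizontal axis, bp; the widest regions lie past its end) for 8 classes of regions named by the lists that hold them. The thick red line, Sublow and Low only, runs between Negative and Sublow only and Low and High only, to the right of the classes of 1 list and to the left of those of 3 or 4 lists.

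Within each parent list the peaks of these regions ranked low by width. The median Sublow peak stood at the 22.9th percentile of all Sublow widths and the median Low peak at the 33.5th percentile of all Low widths. In the Sublow list 3222 of the 5938 peaks (54.3%) fell among the narrowest 25% and 82 (1.38%) among the widest 25%. In the Low list 2129 of the 5928 (35.9%) fell among the narrowest 25% and 266 (4.49%) among the widest 25%. Among regions with 1 peak of each list, both peaks reached 500 bp in 437, and neither reached 200 bp in 542.

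At these regions the Low peak was usually the wider of the pair. In the 5877 regions with 1 peak of each list, the median width was 317 bp in Low and 267 bp in Sublow, although over the whole lists Sublow peaks were the wider, at 464 bp against 433 bp. The median of log2(Sublow width / Low width) was -0.16 (-0.18 to -0.15), with 10th and 90th percentiles of -0.88 and 0.39. Low was wider in 3985 regions (67.8%, 66.6 to 69.0%), Sublow in 1847, and they were equal in 45. Over all 45648 regions with 1 Sublow and 1 Low peak, whichever other lists held them and with these regions included, Low was wider in 50.3%. A Low peak at least 2-fold wider than its Sublow partner was found in 435 regions (7.40%, against 2.63% over all such regions), and a Sublow peak at least 2-fold wider in 107 (1.82%, against 1.67%). Width is not height, so these values do not measure how accessible the sites were.

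The same ratio moved with the population added to the pair. Only regions with 1 peak in each list that held them were compared. Where Negative also held the region, Sublow was wider in 68.9% of 7165 such regions and the median log2 ratio was 0.15 (0.14 to 0.16), with Sublow peaks of 399 bp and Low peaks of 344 bp. Where High also held it, Low was wider in 79.6% of 5998 such regions and the ratio was -0.26 (-0.28 to -0.25), with Sublow peaks of 312 bp and Low peaks of 406 bp. In all 4 lists, for the 25643 such regions, the ratio was 0.01 (0.01 to 0.01). The regions without Negative and High peaks therefore lay between those with a High peak and those of all 4 lists, on the Low side of equal width. The difference between the classes was not tested, because each population is 1 list.

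**Figure D2:**
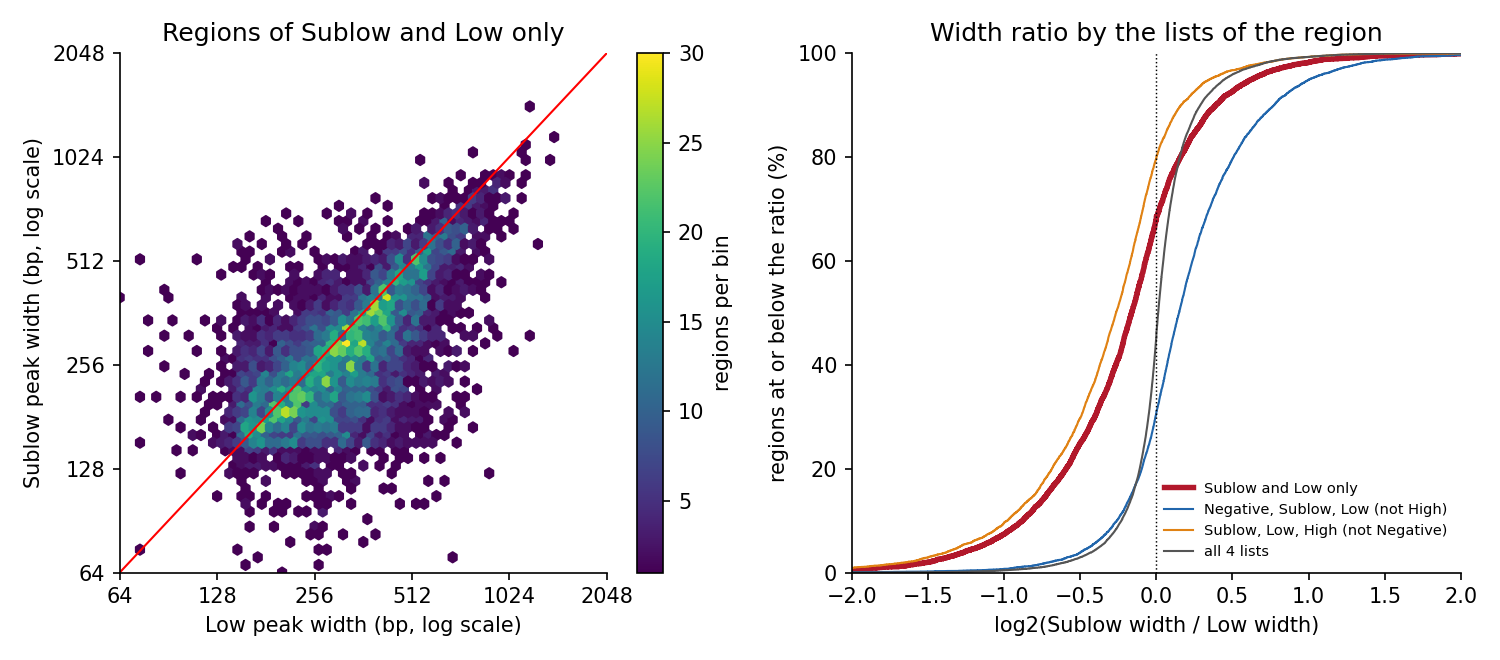
Left, Sublow peak width against Low peak width (both in bp on log axes) for regions of Sublow and Low only, coloured by the number of regions in each bin; the red line marks equal widths, and 20 regions with a peak under 64 bp lie outside the axes. Right, cumulative share of regions (%) by log2(Sublow width / Low width), drawn from -2 to 2, for 4 classes; the red line of Sublow and Low only crosses 0 after 67.8% of regions plus the 45 with equal widths.

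Since the classes differ in peak width, the ratio was also read among regions of like width, taken as the geometric mean of the Sublow and Low widths. Sublow and Low only regions had a negative median in each of the 6 width classes. It was -0.05 (-0.08 to -0.03) in the 998 regions under 200 bp, -0.21 (-0.23 to -0.18) in the 2225 from 200 to under 300 bp, -0.22 (-0.24 to -0.19) in the 1347 from 300 to under 400 bp, -0.16 (-0.19 to -0.13) in the 697 from 400 to under 500 bp, -0.15 (-0.17 to -0.12) in the 501 from 500 to under 700 bp, and -0.12 (-0.17 to -0.08) in the 109 of 700 bp or more. The share with a wider Low peak went from 57.2% in the narrowest class to 81.7% in the widest. In regions of all 4 lists the median stayed between 0 and 0.02 in every width class. In regions that Negative also held it was above 0 in all 6 classes, and in those that High also held it was below that of the Sublow and Low only regions in all 6, although the intervals of these last classes overlapped from 500 bp up.

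**Figure D3:**
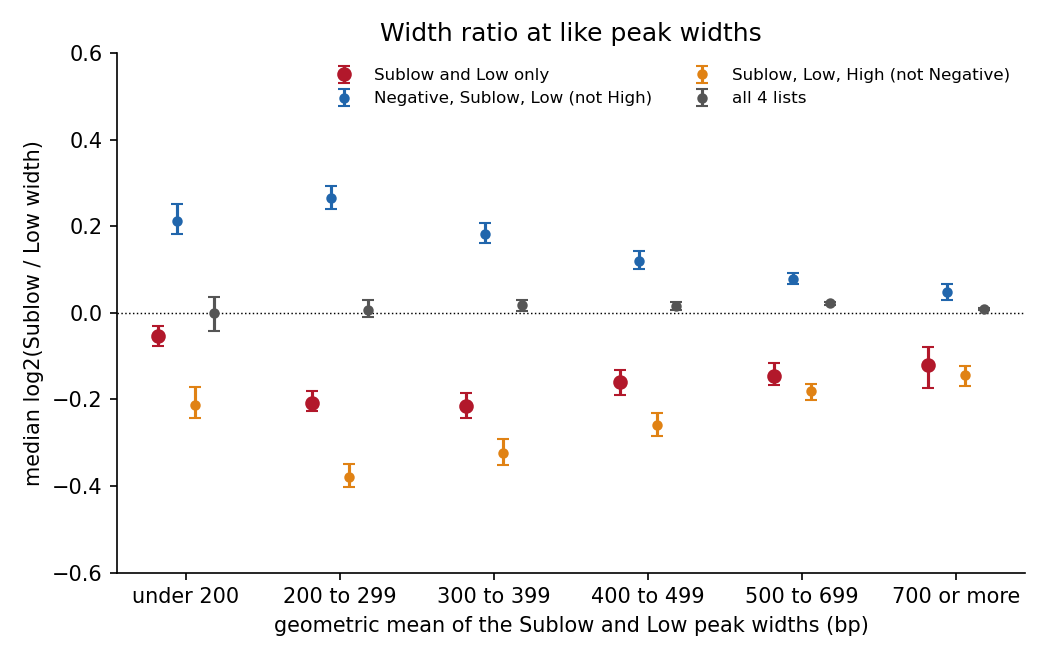
Median log2(Sublow width / Low width) on the vertical axis in 6 classes of mean peak width (horizontal axis, bp) for 4 classes of regions; points are medians and bars are exact 95% intervals of the median. The red points of Sublow and Low only lie below 0 in every width class, from -0.22 to -0.05, between the regions also held by Negative above and those also held by High below.

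The Sublow peak was more often nested in the Low peak than the reverse. Only the narrower peak of a pair can lie within the other, so this order is not independent of the widths above. In 2768 of the 5877 regions (47.1%) the Sublow peak lay within a longer Low peak, in 1018 (17.3%) the Low peak lay within a longer Sublow peak, in 2073 (35.3%) the peaks were staggered, and in 18 both ends were the same. In regions of all 4 lists, again those with 1 peak in each, the Sublow peak lay within the Low peak in 26.3% and the Low peak within the Sublow peak in 32.7%. Where High also held the region, these shares were 60.4% and 9.49%, a stronger lean the same way. Where Negative also held it, they were 16.2% and 50.7%. The centres of the paired peaks were close, with a median offset of 24 bp and a 90th percentile of 82.5 bp. The bases in both peaks divided by the bases in either had a median of 0.76, against 0.91 in regions of all 4 lists, 0.71 for the Negative and Sublow peaks of Negative and Sublow only regions, and 0.63 for the Low and High peaks of Low and High only regions. It was under 0.5 in 733 regions (12.5%). For the Sublow and Low peaks of regions that High also held, the median was likewise 0.76, and 12.2% were under 0.5. For those that Negative also held, the median was 0.81, and 7.27% were under 0.5.

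In both other classes of 2 neighbouring levels, the wider peak was mostly that of the population at the end of the reporter range. Negative was wider than Sublow in 74.3% of 2602 Negative and Sublow only regions, with medians of 304.5 and 225 bp. High was wider than Low in 71.3% of 4892 Low and High only regions, with medians of 341 and 236 bp. The difference in width was smaller in Sublow and Low only, where the absolute median log2 ratio was the lowest of these 3 classes (-0.16, against 0.32 for Negative over Sublow and -0.39 for Low over High).

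The widest Sublow and Low only region covered 1429 bp on chromosome 5 from 120029759 to 120031187, with a Sublow peak of 1429 bp and a Low peak of 1179 bp, and the nearest region with a Negative or High peak was 4287 bp away. It was followed by 1410 bp on chromosome 7 from 4703523 to 4704932 (Sublow 1186 bp, Low 1410 bp) and 1383 bp on chromosome 5 from 35250927 to 35252309 (Sublow 1002 bp, Low 1383 bp), the latter 31961 bp from any region with a Negative or High peak. A region on the X chromosome from 20124728 to 20126017 covered 1290 bp, with 1 Sublow peak of 1231 bp and 2 Low peaks of 1067 bp in all. In the next 2 by width, the Low peak made up most of the region. On chromosome 12 from 28026426 to 28027646 a Sublow peak of 566 bp lay inside a Low peak of 1221 bp, and on chromosome 11 from 5196601 to 5197817 a Sublow peak of 316 bp lay inside a Low peak of 1217 bp.

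The remaining 4 of the 10 widest had peaks of like size. They covered 1179 bp on chromosome 5 from 25119530 to 25120708 (Sublow 1100 bp, Low 1177 bp), 1142 bp on chromosome 12 from 8804790 to 8805931 (1066 and 1139 bp), 1138 bp on chromosome 3 from 50225036 to 50226173 (881 and 1138 bp) and 1130 bp on chromosome 15 from 85800068 to 85801197 (1008 and 1130 bp). In 8 of the 10 widest the Low peak was the wider, and in the widest and the X-linked region the Sublow peak was.

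Some regions rested on a very small peak of 1 list. The most unequal in favour of Sublow was on chromosome 2 from 93483196 to 93483417, where a Sublow peak of 222 bp met a Low peak of 2 bp. The following ones were chromosome 19 from 41378114 to 41378364 with 251 and 9 bp, chromosome 16 from 29990609 to 29990926 with 318 and 40 bp, chromosome 3 from 143458328 to 143458845 with 518 and 75 bp, and chromosome 2 from 73388998 to 73389397 with 400 and 64 bp. In favour of Low the most unequal was chromosome 18 from 35627326 to 35627953, with a Low peak of 628 bp and a Sublow peak of 21 bp. The following ones were chromosome 10 from 41410200 to 41410347 with 148 and 8 bp, chromosome 11 from 67633256 to 67633554 with 299 and 20 bp, chromosome 11 from 31999812 to 32000447 with 636 and 56 bp, and chromosome 3 from 9400602 to 9401130 with 529 and 47 bp. Such cases were few, since a Sublow peak under 50 bp was found in 12 regions and a Low peak under 50 bp in 3.

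Most of these regions lay more than 1000 bp from any site listed in Negative or High cells. The median distance, edge to edge, to the nearest region with a Negative or High peak was 5108 bp (4902 to 5321). It was 2303 bp when peaks had to overlap reciprocally by 50%, where overlapping peaks can belong to different regions. There were 434 (7.34%) within 500 bp of one, 931 (15.7%) within 1000 bp and 4155 (70.3%) within 10000 bp, and 117 (1.98%) were over 100000 bp away. By comparison, 22.6% of the regions of Sublow alone and 13.8% of those of Low alone lay within 1000 bp. The nearest region with a High peak was somewhat closer than the nearest with a Negative peak, with medians of 6751 bp (6487 to 7045) and 7839 bp (7503 to 8164). For 2549 regions (43.1%) they were at the same distance, for 2008 (34.0%) High was closer and for 1357 (22.9%) Negative was. The medians had the same order for Low alone, at 7807 bp to High and 11129 bp to Negative. They did for Sublow alone too, at 5798.5 and 6078.5 bp, where the intervals overlapped. The High list is longer than the Negative list (54395 against 45461 peaks), and the part of that in this order was not tested. The nearest region of all 4 lists was 12664.5 bp away at the median (12125 to 13242), against 9145 bp for Negative and Sublow only and 23571 bp for Low and High only.

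**Figure D4:**
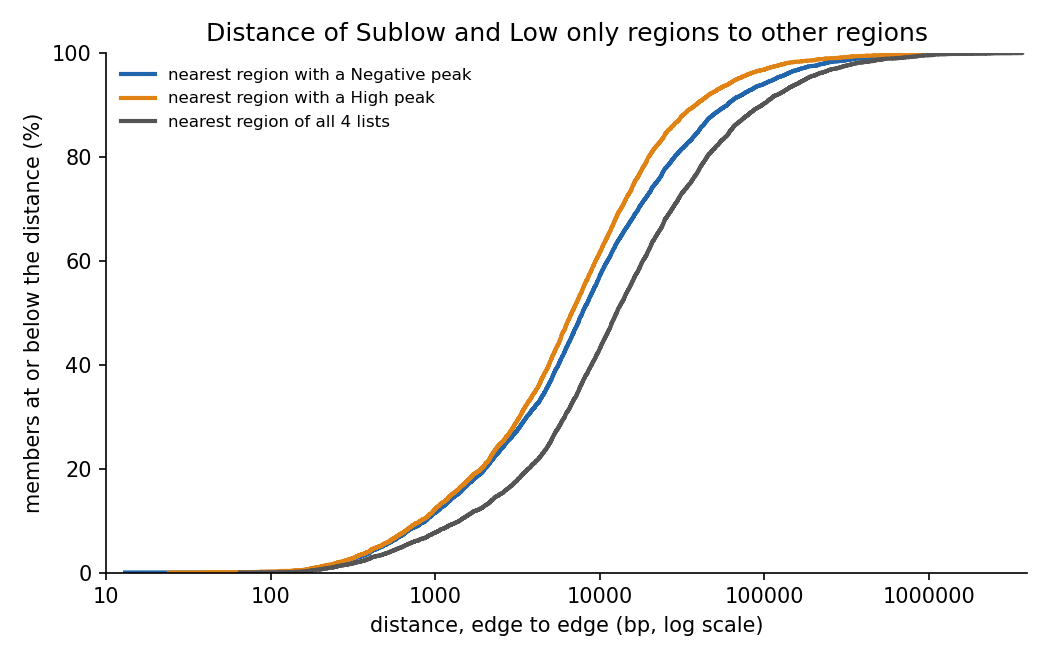
Cumulative share of the 5914 Sublow and Low only regions (%) by distance to the nearest region with a Negative peak, with a High peak, or of all 4 lists (bp, log axis). The curve for High lies to the left of that for Negative over most of the range, with medians of 6751 and 7839 bp, and the curve for regions of all 4 lists lies farthest right.

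The regions far from Negative and High sites were the wider ones, and the lead of Low in width was larger there. The median width was 312.5 bp (298 to 332) in the 434 regions within 500 bp of a Negative or High site, 320 bp (304 to 339) in the 497 from there to 1000 bp, 331 bp (324 to 337) in the 1985 up to 5000 bp, 359 bp (352 to 369) in the 2133 up to 20000 bp and 389 bp (373 to 407) in the 865 beyond. The median log2(Sublow width / Low width) over the same steps was -0.10 (-0.13 to -0.07), -0.10 (-0.14 to -0.06), -0.14 (-0.16 to -0.12), -0.19 (-0.21 to -0.17) and -0.27 (-0.31 to -0.22). The intervals of the nearest and the farthest step did not overlap for either measure. The ratio also differed by peak width, as given above, and its change with distance was not read among regions of like width.

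The most isolated region lay on chromosome 2 from 87847793 to 87848245, 2.45 Mb from any region with a Negative or High peak, with a Sublow peak of 453 bp and a Low peak of 356 bp. Others lay 2.04 Mb away on chromosome 8 from 103421621 to 103422022 (Sublow 251 bp, Low 402 bp), 1.51 Mb away on the X chromosome from 128673449 to 128673806 (235 and 358 bp), 1.13 Mb away on chromosome 6 from 68403266 to 68403886 (486 and 621 bp) and 1.08 Mb away on chromosome 4 from 39012907 to 39013415 (509 and 349 bp). Among regions over 100000 bp away the widest were 1049 bp on chromosome 4 from 19810159 to 19811207 and 1041 bp on chromosome 8 from 110220446 to 110221486, which were picked out after their values were seen.

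At the limit of the rule, a few bases decided membership for a small number of regions. The closest inside was on chromosome 5 from 123453313 to 123454177, 13 bp from a region with a Negative peak, and the next were 24, 31, 40 and 40 bp from a region with a High peak. In all, 15 regions had such a neighbour under 100 bp away and 33 under 150 bp. Just outside, 2 regions were left out for a High peak that shared 1 bp with the joint span of their Sublow and Low peaks. They lay on chromosome 1 from 91864804 to 91865332 and chromosome 3 from 65749116 to 65749682. In all, 29 of 13163 regions of 3 lists with 1 peak each were left out for an overlap with that span under 50 bp.

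Along the chromosome, Sublow and Low only regions had one another as neighbours more often than their overall share. The neighbour on each side of each member was counted, so that a region between members counts once for each of them. Of these 11822 neighbour positions, 1214 (10.3%) were taken by the same class, against 7.18% of all neighbours of any region, a ratio of 1.43. The ratio was 1.65 for Negative and Sublow only beside their own class and 1.76 for Low and High only. In the other classes counted it ran from 1.38 for Sublow alone to 1.55 for Low alone. Beside Sublow and Low only regions, Low alone (8.33% against 6.41%, ratio 1.30) and Sublow alone (2.48% against 2.06%, ratio 1.20) were also more frequent. So were regions of Sublow, Low and High (8.63% against 7.49%, ratio 1.15) and, by less, of Negative, Sublow and Low (ratio 1.07). High alone (13.1% against 16.6%, ratio 0.79) and Negative alone (5.20% against 6.82%, ratio 0.76) were less frequent. Negative and Sublow only (ratio 0.86) and Low and High only (ratio 0.90) were as well. Regions of all 4 lists were close to their overall share, at 32.4% against 33.1%. These ratios are descriptions, with no test.

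The median distance from 1 of these regions to the nearest other of its class, on either side, was 53609 bp (50467 to 56867). Another lay within 10000 bp for 959 (16.2%). The same share was 24.8% for Negative, Sublow and Low, and 14.1% for Sublow, Low and High. It was 12.5% for Low alone, 11.4% for Low and High only and 11.2% for Negative and Sublow only. The classes differ in size, and the part of that in these shares was not tested. Most Sublow and Low only regions stood alone between regions of other classes, since 4775 had no member directly beside them. Another 928 formed 464 runs of 2, and 189 formed 63 runs of 3. There were 3 runs of 4 and 2 runs of 5. The shorter run of 5 took up 9633 bp on chromosome 17 from 16134305 to 16143937, with regions of 180 to 538 bp. The other took up 26229 bp on chromosome 1 from 135844142 to 135870370, with regions of 206 to 557 bp. The shortest run of 4 took up 32246 bp on chromosome 7 from 152163001 to 152195246.

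On a fixed grid of 100 kb, 4337 of 15363 windows with any merged region held at least 1 Sublow and Low only region, and 19 held 5 or more. The most were found on chromosome 7 from 152100001 to 152200000, with 8 of 14 regions in this class; 5 of the rest were of all 4 lists and 1 was of Low alone. No region there was held by High alone, by Negative alone or by 3 lists. The 8 regions were 210 to 521 bp wide. The first began at 152125568, where the Sublow peak measured 210 bp and the Low peak 207 bp, and the second at 152128229 with 343 and 344 bp; both lay among 3 regions of all 4 lists between 152123497 and 152129533. The next began at 152149408 (239 and 184 bp) and 152150211 (419 and 235 bp). Past a region of all 4 lists came those at 152163001 (499 and 418 bp), 152168608 (390 and 386 bp), 152170259 (245 and 201 bp) and 152194804 (362 and 362 bp). In this window Sublow was the wider in 6 of the 8, Low in 1, and 1 was equal, the reverse of the usual order.

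In the second window, chromosome 1 from 135800001 to 135900000, 7 of 15 regions were of Sublow and Low only, and no region was of all 4 lists. Negative had 1 peak there, of 574 bp, in a region of 818 bp that it shared with Sublow and Low. Of the 7, the widest began at 135817769 (Sublow 549 bp, Low 704 bp), and the others began at 135812682 (265 and 349 bp), 135844142 (261 and 223 bp), 135847136 (196 and 196 bp), 135858197 (487 and 557 bp), 135865464 (354 and 372 bp) and 135870017 (232 and 289 bp). Next came 4 windows with 6 members each. The one with the highest share of members among its regions lay on chromosome 17 from 16100001 to 16200000: 6 of its 10 regions were of this class and Negative held none. The other 3 were chromosome 19 from 53800001 to 53900000, with 16 regions, chromosome 17 from 12900001 to 13000000, with 17, and chromosome 5 from 35300001 to 35400000, also with 17, and they held 5, 6 and 4 regions of all 4 lists, so that Negative had peaks in each. In the first of these 4 windows, the first member began at 16102838 with nearly equal peaks, 653 bp for Sublow and 658 bp for Low. The other 5 formed the run given above, beginning at 16134305 (140 and 180 bp), 16137550 (199 and 339 bp), 16141067 (273 and 220 bp), 16141966 (377 and 538 bp) and 16143519 (419 and 202 bp).

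**Figure D5:**
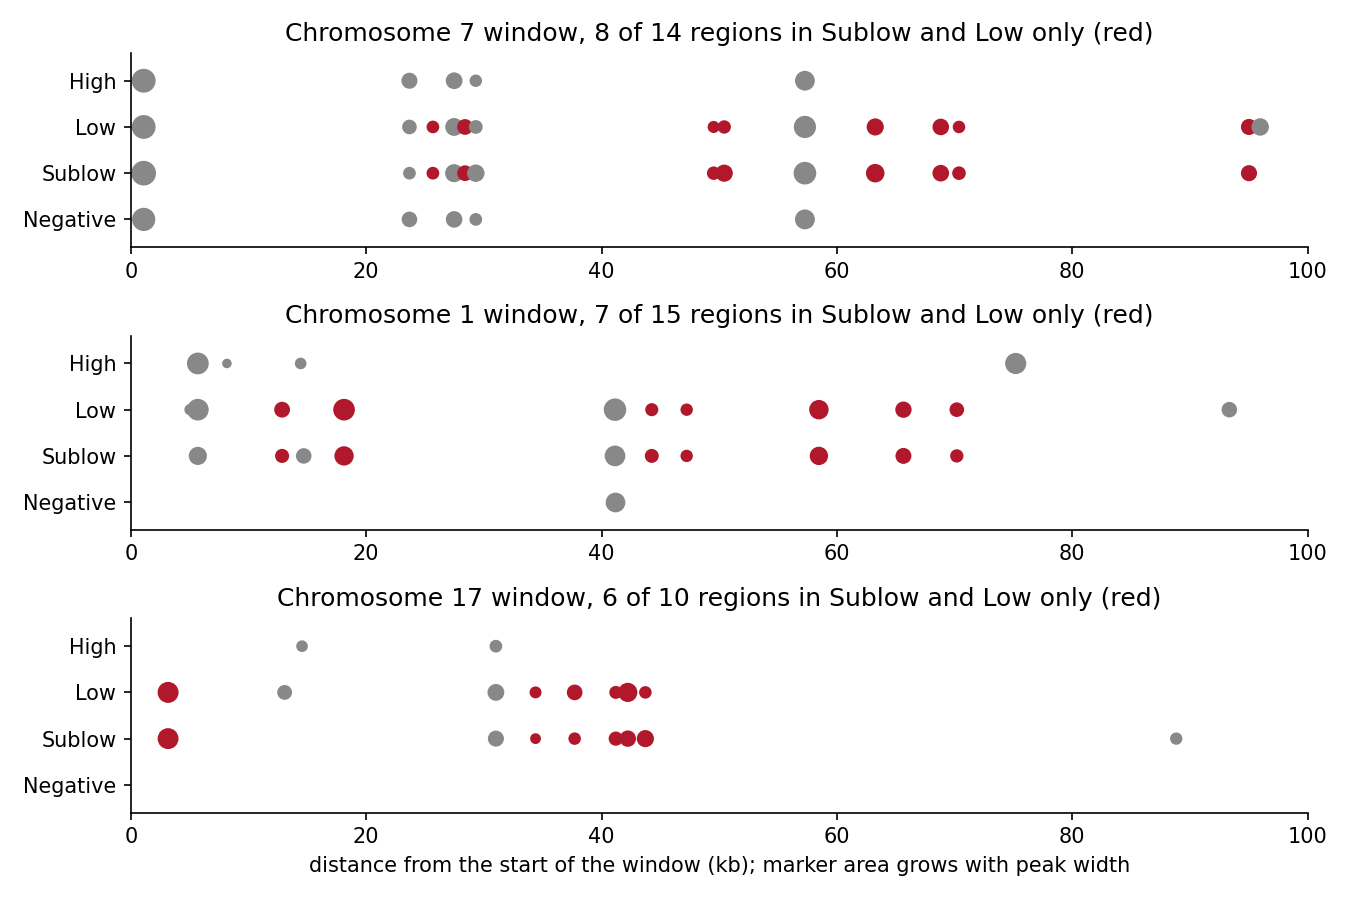
Peaks of the 4 lists (rows) in 3 windows of 100 kb, the 2 with the most Sublow and Low only regions and 1 of the 4 that tied next with 6, by distance from the start of the window (kb); each marker is the peak or peaks of 1 list in a merged region, placed at the centre of that region, with an area that grows with peak width, and red marks Sublow and Low only. The red markers number 8, 7 and 6, and the Negative row of the chromosome 17 window is empty, unlike in the other 3 windows with 6.

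The regions were spread over all chromosomes in near proportion to the merged regions there. Their share ran from 6.21% on chromosome 17 (5.45 to 7.05%) and 6.26% on chromosome 11 (5.65 to 6.91%) to 8.15% on chromosome 18 (7.15 to 9.24%) among autosomes, against 7.16% over all autosomes. The intervals of chromosomes 11 and 18 did not overlap, which is a comparison picked out after the values of all chromosomes were seen. The X chromosome held 135 of its 1605 regions (8.41%, 7.10 to 9.88%), and the Y chromosome 2 of 25. Median width by autosome ran from 321 bp on chromosome 19 to 380 bp on chromosome 13.

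Which regions belong to this class depended on the narrow peaks of the lists. With peaks under 200 bp left out there were 6062 such regions, but only 3964 of the 5914 (67.03%) were among them, and 2098 were regions that did not belong before. With a reciprocal overlap of at least 50% in place of 1 bp there were 7228, among which 5243 of the 5914 (88.7%) were found again.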

How the data were processed

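Omni-ATAC-seq libraries of 4 sorted populations (3 each, 12 in all) were represented by 4 deposited peak lists, 1 per population, whose values are positions in bp on mm9. Per the submitters' processing notes, the tools included MACS2 2.1.2, Bowtie2 2.3.4, Trim Galore 0.4.3, Picard 2.10.3 and deepTools 2.5.2. Their roles and settings, any shift for Tn5, and how libraries were combined are not given in the sources used here. Depth is unknown.

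At least 1 peak in each list started and ended at the same base, so positions were read as counted from 1 with the end included. A peak missing from a list was not listed, which does not show that the DNA was closed. The gene tables used were of GRCm38.p6: only 6.28% of its 32851 promoter windows shared a base with a merged region at the same numbers. Coordinates were not converted, so the planned gene lists, gene positions, GC content and motifs were not analysed here and no sequence is shown.

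The members and lists were chosen with earlier results of these data known. Regions were named by rule: the 10 widest, the 5 most unequal in each direction, the 5 most isolated, the longest runs and the 3 windows of 100 kb with the most members (4 tied for the third place; the highest share of members among the window's regions decided). Intervals are exact (Clopper-Pearson for shares, order statistics for medians, 95%). Merging and distances were tested on simulated data. Scripts ran under Python 3.11.15 with scipy 1.17.1, pandas 2.3.3, numpy 2.4.6 and matplotlib 3.10.9.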

Additional observations from a re-analysis of the deposited data

How the results depend on the processing

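No paired analysis was possible because the lists hold no value for single libraries, so none could be left out either. Alternatives that need an mm9 genome or annotation were not run. The number of regions ran from 5025 (no Negative or High peak within 1000 bp) to 7228 (reciprocal overlap of 50%), within 1.5-fold of 5914. The Low peak was the wider at the median under each of the 7 alternatives that gave this ratio. For the ratio, members with exactly 1 peak of each list are the reported set itself, so that alternative repeats the reported value. Autosomes only and summed peak widths changed few regions, and both gave -0.16. Of 47 values over all alternatives, 29 stayed inside the interval of the reported value, or within 1.5-fold for counts, and 18 moved past it. The 29 include all values of autosomes only and of members with exactly 1 peak of each list, which change few or no regions. A change of sign was possible only for the log2 ratio, and none was seen. With a reciprocal overlap of 50% the median width was 382 bp, log2(Sublow width / Low width) -0.10, the share with a wider Low peak 64.4%, the distance to a Negative or High region 2303 bp and the share of members among neighbours 9.15%. The distance falls by construction there, since overlapping peaks can then belong to different regions. With peaks of at least 200 bp these values were 396 bp, -0.12, 66.1%, 6128.5 bp and 11.6%. With no Negative or High peak within 1000 bp, width was 351 bp, the log2 ratio -0.18, the share with a wider Low peak 69.0% and the distance 6404 bp. With peaks up to 500 bp apart merged, width was 353 bp and distance 5711 bp, and distance between centres was 5602.5 bp. The densest window held 6 members with the grid moved by 50 kb, and 17 with windows of 1 Mb. The distance also rises by construction where regions near a Negative or High peak are left out, and where centres replace edges. A window of 1 Mb cannot hold fewer members than any 100 kb window within it. Peaks of at least 200 bp set a floor to the width of a region. For the other values the cause of the shift was not tested.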
